A study of Mus musculus with 12 samples.

Results

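Genes of 4 families of RNA-binding splicing proteins were followed in nuclear RNA captured as microglial from the injured mouse spinal cord. The members are the 79 protein-coding genes, of 49585 genes in the deposited tables, whose names begin with Hnrnp, with Srsf and a digit, with Sf3a or Sf3b and a digit, or with Rbm and a digit. They comprise 20 hnRNP genes, 11 genes of serine/arginine-rich (SR) proteins, 9 genes of the SF3A and SF3B complexes and 39 genes of the RNA-binding-motif (RBM) series. The rule reads names and no measured value. All groups were C57BL/6 mice. One group had a sham operation and carries a label of 7 days, and the other groups had a spinal cord injury and were sampled 3, 7 and 14 days later. Each group has 3 libraries, and each library pools the cord from 5 mm rostral to 5 mm caudal of the injury site of 3 animals. Nuclei that carry green fluorescent protein (GFP) were captured on magnetic beads by an antibody, so what was sequenced is nuclear RNA, and the promoter that drives GFP is not named in the labels. The p-values therefore measure the spread between pooled libraries, estimated for each gene over the 4 groups together.

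An intron is removed from a transcript by the spliceosome, a machine of small nuclear RNAs and proteins, in which SF3A and SF3B belong to the U2 particle that binds the branch point. SR proteins mostly bind exons and favour their inclusion, hnRNP proteins coat nascent transcripts and often oppose inclusion, and many RBM proteins act as further regulators or spliceosome components. These proteins work in the nucleus and adjust one another's transcripts, often through retained introns or exons that lead to decay, so nuclear RNA holds both productive and unproductive transcripts of their genes.

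Total counts per library ranged from 4003480 to 10670804, and 74 of the 79 members had enough counts to be tested among 18451 genes. The members not tested were Rbm11, Rbm24, Rbm46 and Rbm8a2, with at most 11 counts in any library, and Rbm31y, with 0 counts in all 12 libraries. All 10 microglial markers examined were detected, with a summed level of 5290 to 6950 CPM in sham (counts scaled to library size, here by trimmed mean of M values, TMM) and 3630 to 4310 CPM at 3 days. Markers of other cells were present too: the 14 neuronal markers summed to 3820 to 5980 CPM in sham and 2250 to 3100 CPM at 3 days, and 10 monocyte-derived macrophage markers to 131 to 189 CPM and 1180 to 1640 CPM. Endothelial and fibroblast markers were each at 10 of 10 detected and were higher at 3 and 14 days than at 7 days. Endothelial sums were 259 to 655, 395 to 416 and 49.4 to 64.3 CPM, and fibroblast and pericyte sums 307 to 933, 565 to 670 and 35.4 to 132 CPM. Sham replicate 4 had the highest astrocyte sum of the 12 libraries, 5800 CPM against 821 and 1700 CPM in the other sham libraries. The libraries also differed in sex-linked RNA: 4 Y-linked genes summed to at most 0.708 CPM in sham replicate 2 and in 3-day replicates 1 and 3, and to 9.51 to 703 CPM in the other libraries. With the Y-linked sum as a covariate, an alternative added after the levels were seen, the same 9 members passed at 3 days against sham as without it. The part of other cells in the results below was not tested, and in pooled nuclei fewer cells of a type and less RNA per cell cannot be told apart.

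The members were abundant in these nuclei. Per length, in the deposited RPKM (reads per length of the gene and per library size), the 74 tested members had a median of 19.7 against 5.49 over all tested genes. By family the median was 60.3 RPKM for the SR genes, 30.7 RPKM for the hnRNP genes, 11.2 RPKM for the tested RBM genes and 10.9 RPKM for the SF3 genes. Srsf5, an SR protein, was the highest member with a mean of 345 RPKM, followed by Srsf2, a binder of exonic enhancers, at 143 RPKM. Hnrnph1, which binds G-rich RNA, and Hnrnpa2b1, a reader of RNA sorting signals, followed at 123 and 116 RPKM. Sf3b1, the largest SF3B subunit, had a mean of 107 RPKM and Rbm39, a relative of the U2AF splicing factor, had 98.1 RPKM. Rbm26, another RBM gene, had a mean of 81.2 RPKM and a log2 fold change at 3 days of -0.36 ± 0.25 (edgeR, adjusted p = 0.329). At the other end were the SR-related Srsf12 at 0.631 RPKM, Sf3b5 at 0.645 RPKM and Rbm20, a muscle splicing factor of titin, at 0.801 RPKM.

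The subunits of one complex did not have equal RNA levels. Sf3b1 was the highest and Sf3b5 the lowest of the 9 SF3 genes in all 12 libraries, and their ratio of RPKM ranged from 103 to 398. In sham the Sf3b1 level was 162, 106 and 63.5 RPKM and the Sf3b5 level 0.884, 0.704 and 0.455 RPKM in replicates 2, 3 and 4. These levels rest on the deposited gene lengths, which equal the summed exons of the annotation for both genes named here and were shorter for Sf3b6 (1115 against 2854 bases).

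**Figure D1:**
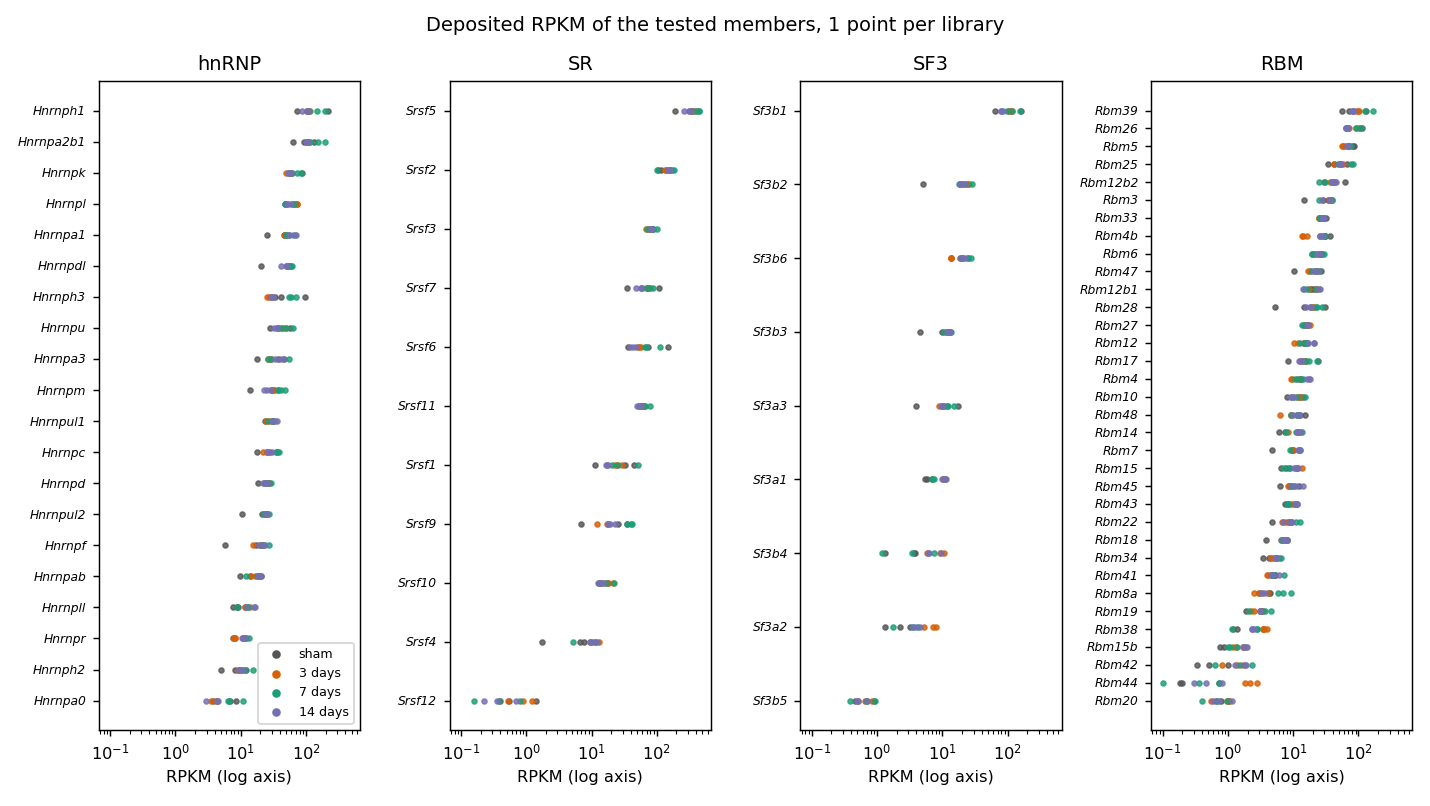
Deposited RPKM (log axis) of each tested member, with 1 point per library coloured by group and genes ordered within each family by their mean. Srsf5 lies highest, and Sf3b1 and Sf3b5 mark the 2 ends of the SF3 family.

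The spread within the sham group was wide for these genes. The highest sham library exceeded the lowest by a median of 1.89-fold over the 74 members, against 1.17-fold at 3 days, 1.47-fold at 7 days and 1.16-fold at 14 days. Over all tested genes the same medians were 1.93, 1.39, 1.59 and 1.3-fold. The tests below share an estimate of the spread over all groups. Each SE and p-value against sham thus draws on groups tighter than sham. In sham, 30 of the 74 members differed by more than 2-fold between libraries, which is 40.5% against 47.3% of all tested genes. Sham replicate 4 had the lowest value of the 3 for 46 of 74 members, 62.2% against 37.4% of all tested genes, and sham replicate 2 the highest for 39 members, 52.7% against 33.4%. The widest was Rbm28, a nucleolar protein of ribosome assembly, at 188, 76.4 and 33.9 CPM in sham replicates 2, 3 and 4. Srsf6, an SR protein, followed the same order at 770, 331 and 194 CPM. Rbm5 and Sf3a1 differed by only 1.12-fold between the sham libraries.

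**Figure D2:**
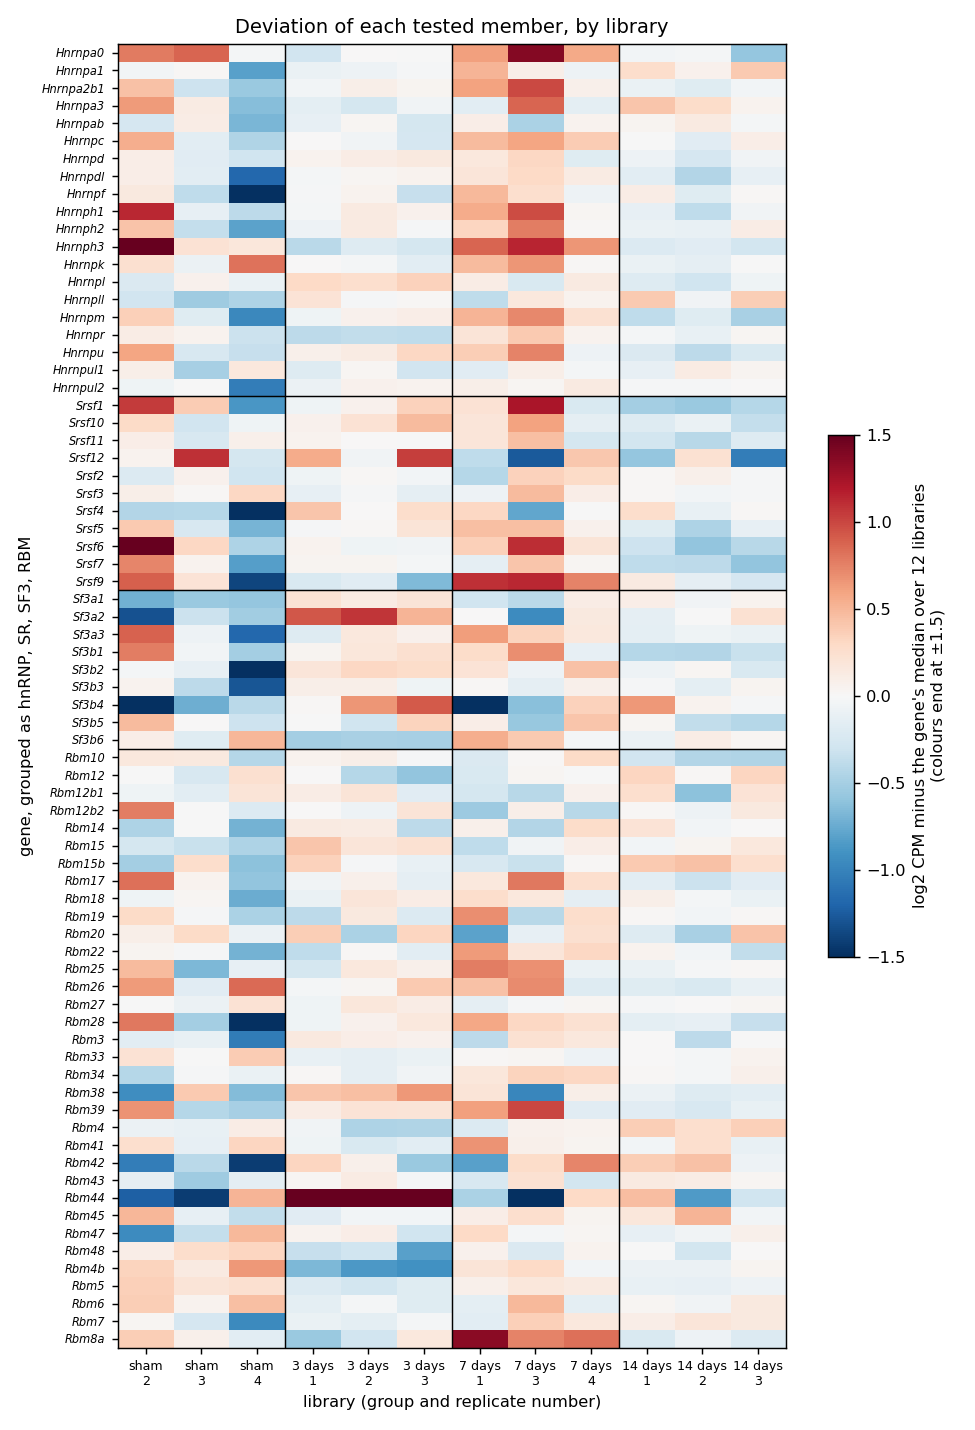
Log2 CPM of each tested member minus its median over the 12 libraries, with red above and blue below that median and colours ending at 1.5. Many members are red in sham replicate 2 and 7-day replicate 3 and blue in sham replicate 4, while the 3-day and 14-day libraries vary little within their group.

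Summed over the 79 members, sham replicates 2, 3 and 4 held 20102, 13595 and 13278 CPM. The sums were 14370, 15047 and 15293 CPM at 3 days and 18081, 21358 and 14978 CPM at 7 days (replicates 1, 3 and 4). At 14 days they were 13666, 12882 and 14015 CPM. The sham mean was thus 15658 ± 3851, against means of 14904 ± 478, 18139 ± 3190 and 13521 ± 581 after 3, 7 and 14 days (SD, n = 3). Sham replicate 2 lay above all 6 libraries of 3 and 14 days, and the sham range contained every other library but 7-day replicate 3 and 14-day replicate 2. A shift of the whole set against sham was therefore not larger than the spread between sham libraries.

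**Figure D3:**
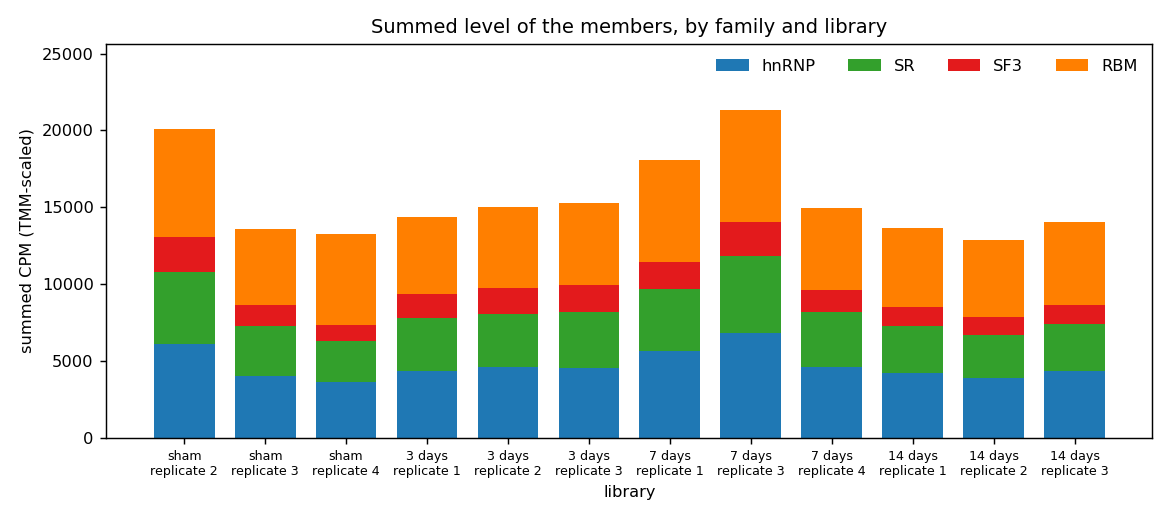
TMM-scaled CPM summed over the members of each family in each of the 12 libraries, stacked. Sham replicate 2 and 7-day replicate 3 are the tallest, at 20102 and 21358 CPM, and all 4 families are high in them.

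In a test of any difference among the 4 groups, 10 of the 74 tested members differed, which is 13.5% against 26.4% of all tested genes (edgeR's quasi-likelihood test; all adjusted p-values below are by Benjamini-Hochberg over the 18451 genes). They were Rbm4b, Rbm44, Rbm8a, Hnrnph3, Sf3a2, Sf3a1, Hnrnpa0, Rbm5, Srsf9 and Hnrnpr. The number ranged from 5 to 25 when 1 library was left out, and was 25 without sham replicate 2 and 22 without sham replicate 4. It was 5 without any 1 library of 3 days and without 14-day replicate 1 or 3. The share of all tested genes in these fits is not reported here.

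At 3 days members passed in both directions. Against sham, 9 of 74 members passed, 12.2% against 20% of all tested genes. Of these, 5 were higher (10.9% of all tested genes) and 4 lower (9.17% of all tested genes). The members' median log2 fold change was 0.05 against -0.03 over all genes, and the median size of the change was 0.29 against 0.5. Among the 7440 protein-coding genes with a mean of at least 5 RPKM, 24.3% passed, against 10.9% of the 64 members at that level. By contrast, 20 of 20 mitotic genes and 17 of 20 replication genes rose at 3 days, with median log2 fold changes of 3.19 and 1.62, and all 20 mitotic genes were lower again at 7 and at 14 days than at 3 days.

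Rbm4b was the member with the smallest p. It encodes an RNA-binding protein with a zinc knuckle that takes part in alternative splicing and translation, and its near relative Rbm4 lies beside it on chromosome 19. Its level was 325, 282 and 405 CPM in sham replicates 2, 3 and 4 and 161, 141 and 137 CPM in 3-day replicates 1, 2 and 3. All 3 libraries of 3 days lay far below all 3 of sham. The log2 fold change was -1.21 ± 0.16 (SE, adjusted p = 0.000198). At 7 days it was back at 295, 317 and 249 CPM, overlapping sham, with a log2 fold change of 0.97 ± 0.16 against 3 days (adjusted p = 0.00295). At 14 days it stood at 242, 242 and 265 CPM, 0.77 ± 0.16 above 3 days on the log2 scale (adjusted p = 0.0107) and below all sham libraries, though the difference from sham did not pass (-0.43 ± 0.16, adjusted p = 0.106). The fall at 3 days and the return at 7 days passed under all 16 alternatives tried.

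Rbm4, whose protein has the same domains, did not show that fall beyond the spread. It was at 61.0, 60.1 and 70.0 CPM in sham and at 62.2, 46.9 and 47.4 CPM at 3 days. The log2 fold change was -0.29 ± 0.17 (adjusted p = 0.256), and the groups overlapped. At 14 days it was at 83.6, 77.1 and 83.3 CPM, above all libraries of the other groups, and the rise from 3 days passed (0.65 ± 0.17, adjusted p = 0.0357). That call was lost without 3-day replicate 2 or 3 or any 1 of the 14-day libraries, and that of Rbm4b from 3 to 14 days without 3-day replicate 3 or 14-day replicate 3. The difference between the changes of the 2 genes was not tested. Of the 50-base sequences of Rbm4, 7.45% also occur in Rbm4b, and 60.5% of its exon bases are shared with Gm21992, a transcript annotated across it on the same strand that counted 25 to 112 reads per library. For Rbm4b, 30.8% of the exon bases face Gm37206 on the other strand, which had 0 counts in every library.

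The promoters of this neighbouring pair are shown because one gene fell and the other did not pass, together with that of Sf3a1, whose rise at 3 days passed under all alternatives. The sequences are from RefSeq on GRCm38.p6, read 5′ to 3′ along the gene up to the base before the RefSeq start. Capitals mark matches on either strand to GGGCGG (the GC box), to CCAAT (the box of that name), to TATAAA (the TATA box) and to CCGGAAG (an ETS-type site). The GENCODE starts differ: the last 28 bases shown for Rbm4b and the last 4 for Sf3a1 are exon there. The Rbm4 gene, on the minus strand, starts there at 4793901, so the stretch shown lies wholly upstream of it. Starts were left out where the stretch held more own exon bases or little sequence free of other genes' exons. Rbm4b is at chr19:4756275-4756524 on the plus strand, Rbm4 at chr19:4794010-4794259 on the minus strand (the farther of its starts), and Sf3a1 at chr11:4160294-4160353 on the plus strand, cut to the 60 bases that no exon of another gene covers.
Rbm4b: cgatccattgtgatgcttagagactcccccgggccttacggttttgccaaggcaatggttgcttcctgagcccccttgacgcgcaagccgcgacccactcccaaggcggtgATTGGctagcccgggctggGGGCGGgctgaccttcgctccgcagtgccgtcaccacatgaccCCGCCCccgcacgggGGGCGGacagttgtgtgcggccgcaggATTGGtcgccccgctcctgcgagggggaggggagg
Rbm4: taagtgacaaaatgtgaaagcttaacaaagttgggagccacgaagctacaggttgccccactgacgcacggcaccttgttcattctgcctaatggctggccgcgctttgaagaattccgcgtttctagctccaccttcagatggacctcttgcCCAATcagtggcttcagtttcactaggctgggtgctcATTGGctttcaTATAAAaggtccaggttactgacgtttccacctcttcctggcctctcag
Sf3a1: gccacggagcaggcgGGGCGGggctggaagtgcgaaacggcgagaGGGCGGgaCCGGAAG

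The stretch before Rbm4b holds 3 GC boxes, 2 CCAAT boxes and 22 CpG dinucleotides at 68.4% G and C. That before the farther RefSeq start of Rbm4 holds 2 CCAAT boxes, 1 TATA box, no match to the GC box and 8 CpG dinucleotides at 50.4% G and C. The shorter stretch of Sf3a1 holds 2 GC boxes and an ETS-type site that ends at the base before the RefSeq start. The last 4 bases of that site are exon in GENCODE. Promoters of 66 of the 79 members were found in the RefSeq table, with 84 starts. Only the 250 bases before each start were searched. The ETS-type letters occurred in 25% of the members' promoters against 6.91% of all 32851 promoters of that length, the GC box in 58.3% against 32.7%, and CCAAT in 44% against 33.8%. The members' promoters were also richer in G and C (median 60.8% against 52.4%), and these shares were not matched for base composition. A TATA box was found in 11.9% against 12.4%. These are matches of letters, not measured binding.

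Of the 3 SF3A subunits, Sf3a1 and Sf3a2 rose at 3 days. Sf3a1, its large subunit, was at 35.7, 40.0 and 39.5 CPM in sham and 68.3, 64.3 and 67.4 CPM at 3 days. The groups were far apart and each was tight. The log2 fold change was 0.80 ± 0.18 (adjusted p = 0.00653). It stayed above all sham libraries at 7 days, at 48.0, 44.6 and 63.9 CPM (0.44 ± 0.18, adjusted p = 0.128). At 14 days, with 63.1, 56.8 and 61.3 CPM, it again passed against sham (0.66 ± 0.18, adjusted p = 0.0312), a call lost under 7 of 16 alternatives, among them the fits without sham replicate 2, without sham replicate 3 or without any 1 of the 14-day libraries.

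Sf3a2, the subunit next to it, rose from 3.78, 7.77 and 6.72 CPM in sham to 19.1, 21.1 and 14.1 CPM at 3 days. The groups did not overlap, and raw counts were 24 to 34 in sham and 84 to 147 at 3 days. Its log2 fold change was the larger of the pair, 1.59 ± 0.36 (adjusted p = 0.00652). At 7 days it was at 9.85, 4.93 and 11 CPM, below all 3-day libraries, a difference that did not pass (-1.07 ± 0.34, adjusted p = 0.0506). Of its exon bases, 16.1% face Plekhj1 on the other strand, whose own log2 fold change at 3 days was 0.64 ± 0.39 (adjusted p = 0.262). The third subunit, Sf3a3, showed no such rise, with 52.4, 26.7 and 12.3 CPM in sham and 24.8, 31.6 and 29.6 CPM at 3 days (-0.11 ± 0.35, adjusted p = 0.858). Its sham libraries alone spanned 4.25-fold. For Sf3a1 and Sf3a2 the call at 3 days passed under all 16 alternatives.

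Among the SF3B subunits only Sf3b4, which contacts RNA beside the branch point, passed at 3 days by edgeR with all libraries and the filter. Sf3b3 passed without sham replicate 2 (0.78, adjusted p = 0.021). The Sf3b4 level was 3.03, 7.32 and 9.24 CPM in sham and 12.5, 19.9 and 23.7 CPM at 3 days, with groups that did not overlap (1.57 ± 0.51, adjusted p = 0.0425). That call was lost under 7 of 16 alternatives, among them the fits without sham replicate 2, sham replicate 3, 3-day replicate 2 or 3-day replicate 3. Of its 50-base sequences, 43.6% occur in annotated transcripts of other loci, including the pseudogene Gm7935, which counted 0 to 7 reads per library. Reads of the 2 can therefore not be fully told apart. Sf3b1, the subunit that clamps the branch point, did not differ detectably: it was at 1970, 1120 and 809 CPM in sham and 1190, 1300 and 1370 CPM at 3 days. Its log2 fold change of -0.02 had a 95% interval of -0.57 to 0.54. Sf3b2, a further SF3B subunit, was above all sham libraries (65.2, 60.8 and 18.5 CPM) at 3 days, at 75.2, 82.8 and 80.5 CPM, without passing (0.71 ± 0.32, adjusted p = 0.127). It passed in edgeR without a filter on low counts (0.73, adjusted p = 0.0168). Sf3b6, which touches the branch-point adenosine, was lower at 3 days, at 15.3, 15.5 and 15.4 CPM, than in any sham library (23.5, 19.2 and 31.1 CPM), without passing (-0.67 ± 0.23, adjusted p = 0.0544). It passed by DESeq2 (-0.68, adjusted p = 0.0287). From 3 to 7 days Sf3b6 passed upward by edgeR, when it was at 32.1, 28.9 and 21.5 CPM (0.83 ± 0.23, adjusted p = 0.0289).

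Of 34 tested RBM genes, 2 rose and 3 fell at 3 days, or 14.7% against 20% of all tested genes. Rbm44, known from the bridges that join dividing germ cells, rose most of all members. It had 1.36, 1.14 and 5.32 CPM in sham and 14.1, 12 and 18.5 CPM at 3 days, from raw counts of 5 to 19 and 62 to 193. The 3-day libraries were the highest of the 12. The log2 fold change was 2.59 ± 0.62 (adjusted p = 0.00938) and ranged from 1.27 to 3.51 over the 16 alternatives, under all of which it passed. It was back at 2.51, 0.704 and 4.55 CPM at 7 days (-2.48 ± 0.60 against 3 days, adjusted p = 0.0153) and at 5.12, 1.87 and 2.90 CPM at 14 days (-2.14 ± 0.59, adjusted p = 0.0395). The 14-day fall from 3 days was lost under 8 of the 16 alternatives, among them the fits without any 1 library of the 2 groups. At a mean of 0.891 RPKM it remained among the rarest members.

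Rbm15, which guides the RNA adenosine methylation complex to its targets, rose from 61.8, 59.0 and 53.7 CPM in sham to 98.9, 84.5 and 87.2 CPM at 3 days. The groups were well separated, and the log2 fold change was 0.63 ± 0.17 (adjusted p = 0.0183). The call was lost without 3-day replicate 1, without 3-day replicate 3 and in a fit of the 2 groups alone, with values of 0.53 to 0.68 over all alternatives. At 7 days its 56.8, 71.3 and 79.7 CPM overlapped sham.

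Rbm5, a spliceosome-associated regulator of exons in apoptosis genes and one of the most abundant members at 69.4 RPKM, fell by little but evenly. It was at 1350, 1210 and 1250 CPM in sham and 914, 874 and 931 CPM at 3 days, and every 3-day library was below every sham library. The log2 fold change was -0.49 ± 0.13 (adjusted p = 0.0162), a call lost under 4 of 16 alternatives, including the one without 3-day replicate 2. All libraries of 7 days (1110, 1190 and 1160 CPM) and of 14 days (977, 969 and 1000 CPM) also lay below sham, with differences that did not pass (-0.14 ± 0.13 and -0.37 ± 0.13, adjusted p = 0.511 and 0.0819). Its relative Rbm10 was at 49.7, 49.4 and 33 CPM in sham and 46.0, 47.3 and 43.8 CPM at 3 days (0.05 ± 0.20, adjusted p = 0.888). Of the 50-base sequences of Rbm10, 41% occur in annotated transcripts of other loci.

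Rbm48, a component of the machine that removes minor introns, fell from 38.0, 42.5 and 44.2 CPM in sham to 27.8, 28.7 and 20.0 CPM at 3 days. All 3-day libraries were below all sham libraries (-0.71 ± 0.20, adjusted p = 0.0234), and the call was lost under 4 of 16 alternatives, including the one without 3-day replicate 3. Of its exon bases, 18.5% are also covered by exons on the other strand.

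Hnrnph3, a small relative of the G-rich binder Hnrnph1, was the only hnRNP gene to pass at 3 days with all libraries included. The size of its change rests on 1 sham library. It was at 327, 123 and 119 CPM in sham replicates 2, 3 and 4 and at 79.7, 92.4 and 87.8 CPM at 3 days. The 3-day libraries lay below all sham libraries, and sham replicate 2 lay far above the other two. The log2 fold change was -1.13 ± 0.30 (adjusted p = 0.0169), and -0.5 without sham replicate 2 (adjusted p = 0.0489). The call was lost under 5 of 16 alternatives: without 3-day replicate 1 or 3, in a fit of the 2 groups alone and by limma with either pseudocount. At 7 days it was at 194, 234 and 166 CPM, above all 3-day libraries (1.19 ± 0.30, adjusted p = 0.0197). Against sham the 7-day difference was 0.06 ± 0.30 (adjusted p = 0.918), and 0.71 without sham replicate 2 (adjusted p = 0.015). At 14 days, with 91.2, 93.7 and 86.9 CPM, it was again below all sham libraries (-1.07 ± 0.30, adjusted p = 0.0364). That call was lost under 9 of 16 alternatives, among them every fit without 1 of the 14-day libraries and the one without sham replicate 2.

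**Figure D4:**
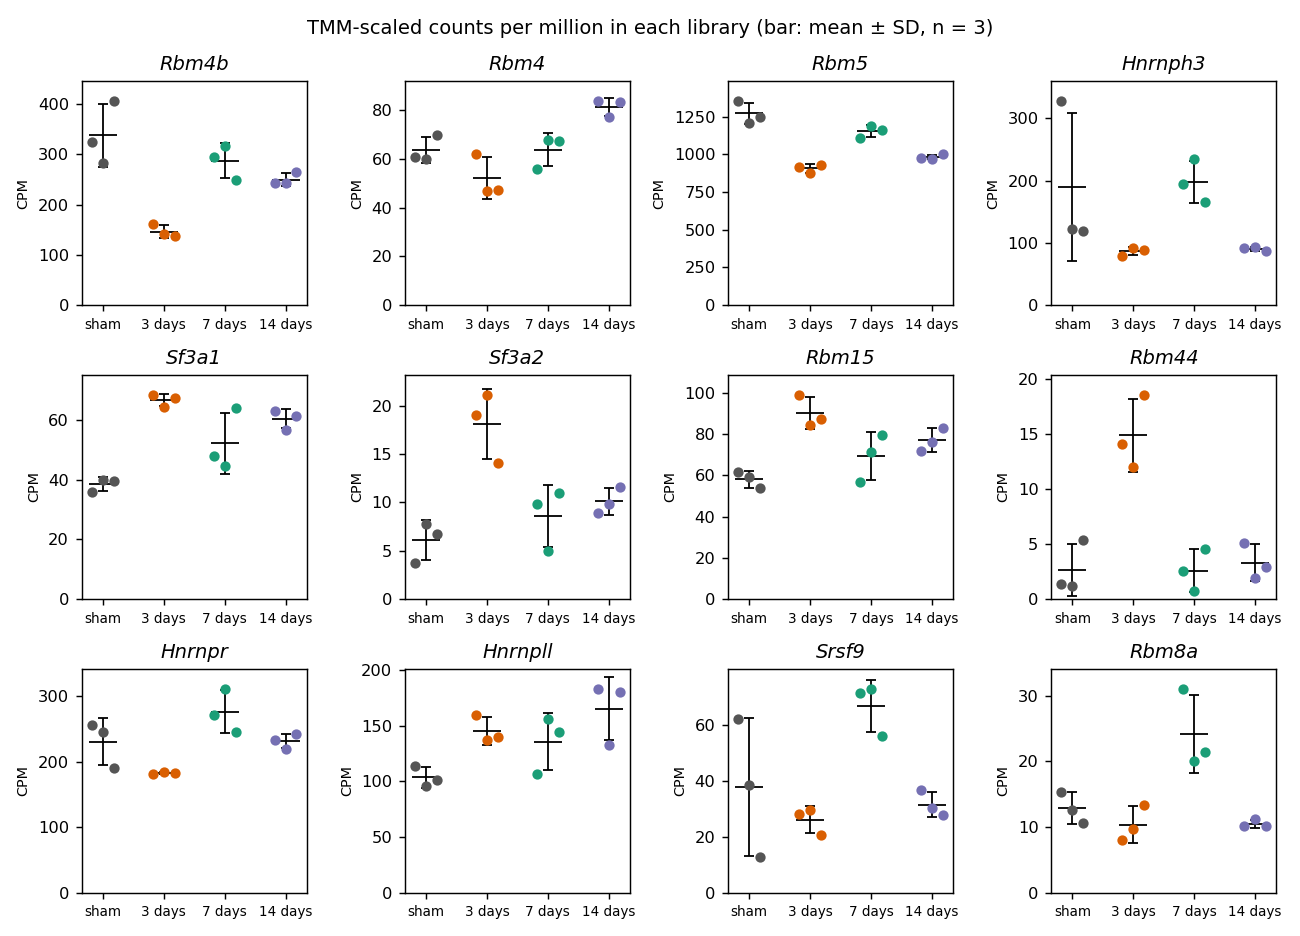
TMM-scaled CPM of 12 members in each library (points, 3 per group) with the mean and SD (bars), on linear axes from 0. Rbm4b, Rbm5 and Hnrnph3 are lowest at 3 days or at 3 and 14 days, Sf3a1, Sf3a2, Rbm15 and Rbm44 are highest at 3 days, and Srsf9 and Rbm8a are highest at 7 days.

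Most of the textbook members did not pass at 3 days. Hnrnpa1 (0.17 ± 0.22), Hnrnpa2b1 (0.10 ± 0.24) and Hnrnpu, a scaffold protein of nuclear RNA (0.11 ± 0.24), had adjusted p-values of 0.628, 0.8 and 0.784. Hnrnpk, which binds C-rich RNA, had a log2 fold change of -0.43 ± 0.21 (adjusted p = 0.164). None of the 11 SR genes passed by edgeR at 3 days, where 20% of all tested genes did. At an unadjusted p under 0.05 there was 1 SR gene, and no share of all tested genes at that threshold is reported here. DESeq2 called 1 SR gene, Srsf4 (1.05, adjusted p = 0.0284). Without a filter on low counts, edgeR called Srsf4 (1.08, adjusted p = 0.00144) and Srsf6 (-0.70, adjusted p = 0.00379). Srsf4 also passed without sham replicate 2 (1.28, adjusted p = 0.0399) and Srsf6 without sham replicate 4 (-1.10, adjusted p = 0.0121). For Srsf1, Srsf2, Srsf3, Srsf5 and Srsf7 the log2 fold changes were -0.26 ± 0.38, 0.11 ± 0.18, -0.24 ± 0.16, 0.18 ± 0.22 and -0.11 ± 0.28. The 95% interval was -0.28 to 0.50 for Srsf2 and -1.07 to 0.56 for Srsf1, so a change of 2-fold lay outside the first and inside the second. Rbm3, induced by cold, was above all sham libraries at 3 days at 180, 174 and 169 CPM against 144, 150 and 78.1 CPM, without passing (0.49 ± 0.23, adjusted p = 0.15). Rbm25, Rbm39 and Rbm47, the last a partner of RNA editing, had log2 fold changes of 0.04 ± 0.26, 0.15 ± 0.29 and 0.11 ± 0.27.

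At 7 days no member passed against sham, where 9.28% of all tested genes did, 4.61% upward and 4.67% downward (edgeR, adjusted p). At an unadjusted p under 0.05, for which no share of all tested genes is reported here, there were 12 members. DESeq2 called 1, Rbm8a. Values leaned upward all the same: 59 of 74 members and 20 of 20 hnRNP genes had a log2 fold change above 0, against 50.7% of all tested genes, and the members' median was 0.23 against 0.01. Without sham replicate 2, 17 of 74 members passed, all upward, where 16.3% of all tested genes passed in either direction, and the members' median was 0.38. The remaining sham libraries then include replicate 4, in which the members lay lowest (a median of -0.42 from their own 12-library medians on the log2 scale). Without sham replicate 4, 1 member passed, Rbm47 (0.73, adjusted p = 0.0338), where 6.89% of all tested genes did, and the members' median was 0.13 against 0.03 over all genes. The count was 0 without sham replicate 3 or any 1 of the 7-day libraries. Of all tested genes 9.46% passed without sham replicate 3, and 4.23%, 6.75% and 5.01% without 7-day replicate 1, 3 or 4. Among the 17 were Hnrnpa2b1 (1.02, adjusted p = 0.00648), Rbm39 (1.01, adjusted p = 0.0136) and Srsf5 (0.78, adjusted p = 0.0138). With all sham libraries included, Hnrnpa2b1 was at 949, 562 and 475 CPM in sham and 1060, 1380 and 735 CPM at 7 days, with overlapping groups (0.68 ± 0.24, adjusted p = 0.0917).

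**Figure D5:**
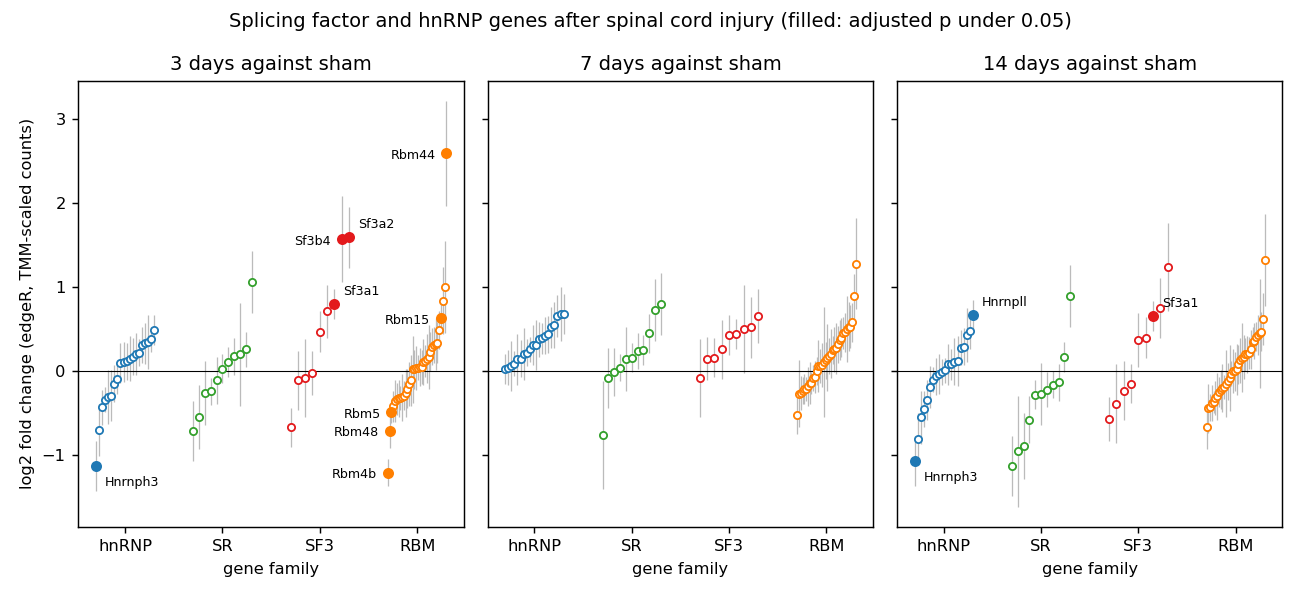
Log2 fold change against sham of the 74 tested members at 3, 7 and 14 days, ordered by size within each family, with SE as bars and members past an adjusted p of 0.05 filled and named. At 3 days 9 are filled, at 7 days 0 and at 14 days 3, and at 7 days all 20 hnRNP genes lie above 0. The 3 panels share the same sham libraries.

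Between 3 and 7 days, 8 of 74 members passed, 10.8% against 13.4% of all tested genes. Of these 7 rose, where 5.85% of all tested genes did, and 1 fell, where 7.52% did. Besides Rbm4b, Hnrnph3, Sf3b6 and the falling Rbm44, the risers were Rbm8a, Srsf9, Hnrnpr and Hnrnpa0. Rbm8a, a core protein of the exon junction complex that marks spliced RNA, was at 7.97, 9.71 and 13.4 CPM at 3 days and 31, 20.1 and 21.4 CPM at 7 days. At 7 days it was above every library of the other groups, and the rise from 3 days passed (1.2 ± 0.27, adjusted p = 0.0121), a call lost under 1 of 16 alternatives, that without 7-day replicate 1. The related gene Rbm8a2, which shares 6.03% of the 50-base sequences of Rbm8a, counted 0 to 11 reads per library. Against sham (15.4, 12.6 and 10.6 CPM) the 7-day rise missed the threshold (0.89 ± 0.27, adjusted p = 0.0529). By 14 days it was at 10.1, 11.2 and 10.2 CPM, and it alone passed between 7 and 14 days (-1.2 ± 0.28, adjusted p = 0.0399), a call lost under 9 of 16 alternatives, among them the fits without any 1 of the 6 libraries compared.

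Srsf9, an SR protein, rose from 28.2, 29.4 and 20.8 CPM at 3 days to 71.2, 72.7 and 55.8 CPM at 7 days (1.35 ± 0.38, adjusted p = 0.0289). The 7-day group lay above the 3-day and 14-day groups but overlapped sham, where the level was 61.9, 38.4 and 12.6 CPM. Hnrnpr, which binds messenger RNA in axons and nuclei, was at 182, 184 and 183 CPM at 3 days and 271, 311 and 246 CPM at 7 days (0.59 ± 0.15, adjusted p = 0.0212). The 3-day libraries were nearly identical and all lay below sham (256, 246 and 190 CPM). Hnrnpa0, which binds AU-rich messages of inflammation, was at 9.34, 11.5 and 11.4 CPM at 3 days and 17.8, 30.5 and 17.3 CPM at 7 days (1.01 ± 0.31, adjusted p = 0.0419), while sham, at 20.0, 21.3 and 11.2 CPM, overlapped 7 days. The 7-day rises of Srsf9, Hnrnpr, Hnrnpa0, Hnrnph3 and Sf3b6 were each lost without any 1 of the 3-day libraries and without 7-day replicate 1 or 3, and the fall of Rbm44 without 3-day replicate 3 or 7-day replicate 1 or 3. The count itself ranged from 1, without 7-day replicate 1, to 11, without 7-day replicate 4. It was 3, 3 and 2 without 3-day replicate 1, 2 or 3 and 2 without 7-day replicate 3. Of all tested genes 4.88% passed without 7-day replicate 1, 13.2% without 7-day replicate 4 and 5.77% without 7-day replicate 3. Without 3-day replicate 1, 2 or 3 the share was 7.68%, 7.77% and 3.01%.

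At 14 days 3 members passed against sham, 4.05% against 9.82% of all tested genes: Hnrnph3 fell (4.79% of all tested genes did), and Sf3a1 and Hnrnpll rose (5.02%). Hnrnpll, which switches exons of the leukocyte antigen CD45 in lymphocytes, was at 114, 96.0 and 101 CPM in sham and 183, 133 and 180 CPM at 14 days. The groups did not overlap (0.67 ± 0.18, adjusted p = 0.0278), and all 3-day libraries, at 160, 137 and 140 CPM, were above sham as well (0.49 ± 0.18, adjusted p = 0.0658). The call was lost under 5 of 16 alternatives, among them the fits without sham replicate 3 or without 14-day replicate 1 or 3. Srsf6 had a larger but less certain difference: sham replicates 2, 3 and 4 were at 770, 331 and 194 CPM and the 14-day libraries at 216, 177 and 200 CPM (-1.13 ± 0.36, adjusted p = 0.0625). Without sham replicate 4 that difference passed (-1.49, adjusted p = 0.00257). The count of members then rose to 9, of which 7 were lower, where 14.3% of all tested genes passed in either direction. The count fell to 0 without 14-day replicate 1 or 3, where 4.04% and 3.58% of all tested genes passed. It fell to 1 without 14-day replicate 2, where 4.43% did.

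Between 3 and 14 days, 3 members passed, 4.05% against 7.31% of all tested genes: Rbm4b and Rbm4 rose (2.17% of all tested genes did) and Rbm44 fell (5.14%). The count was 0 without 3-day replicate 3 or 14-day replicate 3, where 2.32% and 2.4% of all tested genes passed. It was 1 without 3-day replicate 2 or 14-day replicate 1 or 2, where 3.99%, 2.38% and 2.45% passed. It was 23 in a fit of the 2 groups alone. These groups had the narrowest spread between libraries, and the part of that in the count was not tested. The share of all tested genes in that fit is not reported here. Between 7 and 14 days the single call of Rbm8a made 1.35% of members against 2.19% of all tested genes, downward (0.835% of all tested genes). At an unadjusted p under 0.05, for which no share of all tested genes is reported here, there were 21 members. Of the 74, 23 had a log2 fold change above 0, against 45.7% of all tested genes.

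The rest of the splicing machinery was described with lists of other genes. Of 31 other splicing regulators tested, 1 rose and 2 fell at 3 days against sham, where 10.9% of all tested genes were higher and 9.17% lower, with a median log2 fold change of -0.07. The riser was Ptbp1, the polypyrimidine tract binding protein that represses neuronal exons (0.90 ± 0.14, adjusted p = 0.000688). Mbnl1 (-1.05 ± 0.22, adjusted p = 0.00391) and Celf2 (-1.02 ± 0.19, adjusted p = 0.0017), 2 regulators with opposed effects on many exons, fell. Rbmx, a relative of the hnRNP proteins, and Srrm2, a scaffold of nuclear speckles, were lower at 14 days (-0.61 ± 0.17 and -0.84 ± 0.17, adjusted p = 0.0346 and 0.00716). Between 3 and 7 days 5 of the 31 rose and 3 fell, where 5.85% and 7.52% of all tested genes did.

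Of 40 core spliceosome genes, 0 rose and 3 fell at 3 days, 2 rose at 7 days and 0 passed at 14 days by edgeR, with medians of 0.05, 0.36 and 0.04. Among all tested genes 9.17% were lower at 3 days, 4.61% higher at 7 days and 9.82% different in either direction at 14 days. The risers at 7 days were Snrnp70, the U1 protein (0.98 ± 0.20, adjusted p = 0.00866), and Snrpd2, a core Sm protein (2.00 ± 0.42, adjusted p = 0.0107). Snrpd2 was rare, at means of 1.92 CPM in sham and 7.75 CPM at 7 days. From 3 to 7 days 5 rose and 0 fell, where 5.85% of all tested genes rose, including Lsm3, Lsm5 and Lsm6 of the ring of proteins on U6. Lsm3 fell at 3 days (-0.96 ± 0.30, adjusted p = 0.0353) and rose from there to 7 days (1.34 ± 0.30, adjusted p = 0.0109). Lsm4 fell from 7 to 14 days (-2.37 ± 0.57, adjusted p = 0.0451), at low means of 7.48 and 1.5 CPM. Of 8 minor spliceosome genes, 0 passed against sham at any time by edgeR, and Zcrb1, a protein of the minor spliceosome (1.13 ± 0.29, adjusted p = 0.0216), and Zrsr2, which recognises the end of minor introns (0.50 ± 0.15, adjusted p = 0.0377), rose from 3 to 7 days. Of 12 SR protein kinases and importins 2 rose at 3 days, where 10.9% of all tested genes did: Srpk1, a kinase that phosphorylates SR proteins, and Tnpo2, an importin (0.54 ± 0.16 and 1.00 ± 0.20, adjusted p = 0.0244 and 0.00309). Clk2, another SR protein kinase, fell from 3 to 14 days (-0.70 ± 0.16, adjusted p = 0.0157). Of 13 regulators typical of neurons, 4 fell at 3 days, 2 at 7 days and 5 at 14 days and none rose, where 9.17%, 4.67% and 4.79% of all tested genes fell. Rbfox1 had log2 fold changes of -1.38 ± 0.30, -1.62 ± 0.30 and -1.2 ± 0.30 (adjusted p = 0.00523, 0.00546 and 0.0203). At 14 days Celf5, Khdrbs2 and Nova1 fell as well, by 2.28, 2.61 and 0.92 on the log2 scale (adjusted p = 0.00783, 0.0156 and 0.0156). Celf5 and Khdrbs2 were rare then, at means of 1.91 and 1.23 CPM. The sums of the neuronal markers, given above for sham and 3 days, were lower than in sham at 7 and 14 days too. They were then 2070 to 2420 and 1350 to 2080 CPM. Their part in the falls of these regulators was not tested.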

How the data were processed

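Nuclear RNA was measured in 12 libraries of 4 groups. Per the labels' protocols, RNA was amplified by single primer isothermal amplification and sequenced as paired reads. The submitters' processing notes name featureCounts 1.4.6-p3, GRCm38 and mm10. Which aligner was run, whether counting used strand and how multiply matching reads were treated is not given in the sources used here. As separate tables the authors deposited raw counts per Ensembl gene and RPKM, which equal the count per gene length and library total within a relative difference of 9.5e-15. The deposited RPKM are not TMM-scaled and served to compare genes. TMM-scaled CPM served to compare libraries.

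Genes passing filterByExpr (18451, holding 99.6% of counts) were fitted in edgeR 4.0.16 (R 4.3.3) by the quasi-likelihood method over the 4 groups. Calls are at a Benjamini-Hochberg adjusted p under 0.05 among all genes tested. Each SE is the log2 fold change over the square root of F, and 95% intervals use the t distribution with the 15.2 total degrees of freedom of that test. The common biological coefficient of variation was 0.271, and correlations of log2 CPM within groups were 0.88 to 0.979. With 3 libraries against 3, an exact permutation test of 1 value cannot go below 0.1. On simulated counts for 3 days against sham (17838 genes tested), the test found 20% of the 2-fold and 73% of the 4-fold changes made, with 5 false calls of 98. The simulation changed 200 genes drawn from all tested genes, where 3695 were called in the data. It gave each gene the same relative spread in every group, so it held no wider sham group. The false calls of the data can therefore not be read from it. The members are also more abundant than most genes, so these rates need not hold for them.

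The alternatives were median-ratio factors, library totals, no filter, a filter requiring 1 CPM in 3 libraries with a mean of 5 CPM, a replicate block, a fit of 2 groups, DESeq2 1.42.0, limma 3.58.1 on log2 RPKM (pseudocounts 1 and 0.1), leaving out single libraries, and a Y-linked covariate added after seeing the data. The member rule reads only names, but the families, the lists and the named genes were chosen with earlier results of these data known. Members named are those called in any comparison, the 3 with the highest RPKM in each family, a fixed set of well known ones and those not tested. From other lists up to 4 called genes are named, and some genes are not reported here. A few further ones (Rbm28, Srsf6, Srsf4, Srsf12, Sf3b3, Sf3b5, Rbm20, Sf3a3, Mbnl1, Lsm5, Lsm6, Zrsr2) were named after their values were seen. Exon overlaps and 50-base sequences shared between loci were computed from the GENCODE annotation and transcript sequences on GRCm38. Copies outside annotated transcripts were not searched. Promoters came from RefSeq. Figures were drawn with matplotlib.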

Additional observations from a re-analysis of the deposited data

How the results depend on the processing

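No called result changed direction under the alternatives run. Of the 24 called comparisons of single members, 5 kept their call under all 16 alternatives tried: Rbm4b, Rbm44, Sf3a1 and Sf3a2 at 3 days against sham and Rbm4b from 3 to 7 days. The number of members differing among the 4 groups was 10, and 23 without a filter, 17 with the replicate block, 19 by DESeq2 and 5 to 25 with 1 library left out. At 3 days against sham 9 became 4 in a fit of only the 2 groups and 5 to 13 with 1 library left out. At 7 days 0 became 7 without a filter, 1 with the Y-linked covariate, 3 with the replicate block, 1 by DESeq2 and 0 to 17 with 1 library left out. At 14 days 3 became 9 without a filter, 5 with the replicate block, 0 in the 2-group fit, 5 by DESeq2 and 0 to 9 with 1 library left out. From 3 to 7 days 8 became 13 without a filter, 16 with the replicate block, 5 by limma with either pseudocount and 1 to 11 with 1 library left out. From 3 to 14 days 3 became 23 in the 2-group fit, 1 with the Y-linked covariate and 0 to 2 with 1 library left out. From 7 to 14 days 1 became 0 with library totals, 13 without a filter, 2 with the Y-linked covariate, 14 with the replicate block, 13 in the 2-group fit, 4 by DESeq2, 0 by limma with either pseudocount and 0 with any 1 library left out. With 1 library left out, the share of all tested genes passing ranged from 9.95% to 21.3% at 3 days against sham. Against sham it was 4.23% to 16.3% at 7 days and 3.58% to 14.3% at 14 days. It was 3.01% to 13.2% from 3 to 7 days, 2.32% to 4.32% from 3 to 14 days and 0.00529% to 1.59% from 7 to 14 days. Shares for the other alternatives are not reported here. The cause of the changes in the counts was not tested. The fits that leave a library out also hold fewer libraries, and the part of that was not tested either.

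Scaling by library totals moved the median log2 fold change of all genes from -0.05 to 0.07 both at 14 days against sham and from 7 to 14 days, and the calls at 14 days were then 2 higher and 0 lower in place of 2 and 1. The replicate numbers do not pair libraries: over 13 pairs with the same number the correlations of deviations ran from -0.3 to 0.07, and 2 of 12 libraries had their best match in another group under their own number. With total counts of 4003480 to 10670804 the rare members rest on few reads, such as 5 to 19 for Rbm44 in sham.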

Other observations

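Names matching the same patterns but of other gene types were not members. The antisense gene Rbm3os counted 20 to 42 reads per library and had log2 fold changes against sham of -0.52, -0.33 and -0.13 at 3, 7 and 14 days (edgeR, adjusted p = 0.387, 0.635 and 0.878). The processed pseudogene Rbm6-ps1 counted 4 to 54 reads per library, with a log2 fold change of 0.66 at 3 days (edgeR, adjusted p = 0.388). The pseudogenes Hnrnpa1l2-ps and Rbm6-ps2 summed to 43 and 41 reads over the 12 libraries, and the antisense Rbm46os had 0 in every library.

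Several members share sequence with other loci, and how reads matching both were assigned is not given in the labels. Of their 50-base sequences, 60.8% of Rbm12b1, 55.1% of Rbm12b2, 43.2% of Hnrnpf, 28.2% of Hnrnpa1 and 26.9% of Hnrnpa3 occur in annotated transcripts of other loci. Rbm31y, which had no counts, shares 100% of its own.

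Members above their own 12-library median numbered 50, 53 and 52 of 74 in 7-day replicates 1, 3 and 4, where 50.8%, 50.6% and 52.1% of all tested genes were above theirs. They numbered 48 in sham replicate 2, 19 in sham replicate 4 and 19 in 14-day replicate 2. Of all tested genes 48.6%, 49% and 48.9% were above theirs in these libraries.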
